A study of Mus musculus with 64 samples.

Results

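A set of 10 genes of bile acid sensing and transport, with the vitamin D receptor, were followed through RNA sequencing of whole mouse colon. They were taken by gene symbol from 2 deposited tables of 35534 genes each, and all 10 were found in both: Nr1h4, Nr0b2, Fgf15, Fabp6, Slc10a2, Slc51a, Slc51b, Gpbar1, Cyp27a1 and Vdr. The 64 libraries came from wild-type Swiss Webster mice, an outbred stock, aged 8 to 12 weeks and kept under 12 h of light and 12 h of dark. Mice were raised either free of specific pathogens (SPF) or without any microbes (germ-free, GF), and both kinds received vancomycin, a glycopeptide antibiotic against Gram-positive bacteria, or PBS. Each injection was intraperitoneal, 100 µl of PBS with or without 2.5 mg of vancomycin, given on 3 days with 2 doses each and on day 4 with a single dose. Germ-free mice left their isolators for ISOcages during the treatment. Tissue was collected at 5, 11, 17 or 23 h after lights on (zeitgeber time, ZT), which made 16 groups of 4 libraries, 8 SPF and 8 GF groups.

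Bile acids are made from cholesterol in the liver, released into the small intestine, largely taken back in the ileum and returned to the liver. What escapes into the colon is deconjugated and dehydroxylated by bacteria, and the products reach the colon epithelium. Slc10a2 (ASBT) carries bile acids into the cell at the lumen, Fabp6 (ileal bile acid binding protein) binds them in the cytosol, and the heterodimer of Slc51a and Slc51b (OSTα and OSTβ) exports them across the base. The nuclear receptor Nr1h4 (FXR) senses them and induces Fgf15, an ileal hormone that lowers bile acid synthesis, and Nr0b2 (SHP), a corepressor. Gpbar1 (TGR5) is a bile acid receptor at the cell surface, Vdr binds both active vitamin D and the secondary bile acid lithocholic acid, and Cyp27a1 is the mitochondrial sterol hydroxylase of the alternative synthesis pathway, which also hydroxylates vitamin D.

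The germ-free results turn on the uptake carrier and the export pair, so the bases just before their start sites are shown. The windows are the 250 bases upstream of the RefSeq start in build GRCm38.p6, on the minus strand in all 3, read 5′ to 3′: chr8:5105288-5105537 for Slc10a2, chr16:32487880-32488129 for Slc51a and chr9:65422774-65423023 for Slc51b. Capitals mark letter matches on either strand to GTTAAT (a half-site of HNF1), TTTATG (a site of the CDX factors), CACGTG (an E-box) and AGGTCA (a half-site of nuclear receptors).
Slc10a2: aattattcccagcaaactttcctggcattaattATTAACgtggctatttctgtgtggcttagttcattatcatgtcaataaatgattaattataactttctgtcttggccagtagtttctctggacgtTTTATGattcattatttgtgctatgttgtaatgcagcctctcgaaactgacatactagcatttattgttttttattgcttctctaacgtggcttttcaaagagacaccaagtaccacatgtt
Slc51a: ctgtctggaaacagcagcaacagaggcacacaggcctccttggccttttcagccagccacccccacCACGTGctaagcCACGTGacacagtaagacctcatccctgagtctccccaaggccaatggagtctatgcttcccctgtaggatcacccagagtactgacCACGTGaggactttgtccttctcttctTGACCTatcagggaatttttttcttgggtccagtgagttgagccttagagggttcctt
Slc51b: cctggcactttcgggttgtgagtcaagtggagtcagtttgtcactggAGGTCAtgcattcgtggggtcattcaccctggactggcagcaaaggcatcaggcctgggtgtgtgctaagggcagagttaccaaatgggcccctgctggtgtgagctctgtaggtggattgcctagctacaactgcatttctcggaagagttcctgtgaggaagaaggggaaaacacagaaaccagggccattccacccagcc
Slc10a2 held 1 GTTAAT and 1 TTTATG, which 6.43% and 10.8% of 32851 promoters of the same length held. Slc51a held 3 copies of CACGTG, and 0.0609% of promoters held 3 or more. It also held 1 AGGTCA. Slc51b held 1 AGGTCA, found in 14% of promoters. The inverted repeat of AGGTCA with 1 base between the copies (IR-1, a site of FXR) occurred in 2 of the 32851 promoters and in none of the 9 found for these genes. These exact letters are so rare that their absence from 9 promoters tells nothing about FXR sites. Repeats with other letters were not searched. These are matches of letters and no record of binding.

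SPF libraries held 10044032 to 13615804 estimated counts each, and GF libraries 10513966 to 15736087. Levels are given as CPM, counts scaled to a common library size with TMM factors. CPM is not divided by transcript length, so levels are compared between samples and not between genes. Whether libraries are separate animals is not stated in the labels, so the tests speak of variation among libraries. Over 48 pairs within groups, the lowest chi-square per degree of freedom was 16.19 in SPF and 16.26 in GF libraries. Paired libraries thus differed by more than counting noise. The animal and technical parts of that variation were not separated. In whole tissue, fewer cells of a type and less RNA per cell cannot be told apart. The 10 colonocyte genes summed to at least 6302 CPM in every library. Single genes of that list varied more than the sum, such as Aqp8 at 1.244 to 762 CPM over GF libraries. The 5 genes Hoxb13, Hoxd10, Hoxd11, Hoxd12 and Hoxd13, which mark the distal colon, summed to 105.7 to 543 CPM in the 32 SPF libraries. Of the 32 GF libraries, 14 fell below the lowest SPF library, at 7.18 to 79.6 CPM, and the other 18 held 141 to 525 CPM. The 14 were 6 of 16 PBS and 8 of 16 vancomycin libraries, and they were unevenly spread over the hours, with 6 of 8 at ZT5, 2 of 8 at ZT11 and 3 of 8 at both ZT17 and ZT23. Genes of the Y chromosome were counted as lacking where the mean log2 CPM of a set of 4 lay under 3. This held in 2 of 16 GF PBS and 9 of 16 GF vancomycin libraries and in none of the SPF libraries. Single groups held both kinds, with 1 lacking library of 4 in GF PBS ZT17 and 2 of 4 in GF vancomycin ZT17. Not all of the set were absent in the libraries counted as lacking. Ddx3y and Eif2s3y reached 0 CPM in GF libraries, but Kdm5d stayed at 2.77 CPM or above and Uty at 14.04 CPM or above. Uty was highest, at 81.04 CPM, in GF vancomycin ZT17 replicate 2, a library counted as lacking.

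**Figure D1:**
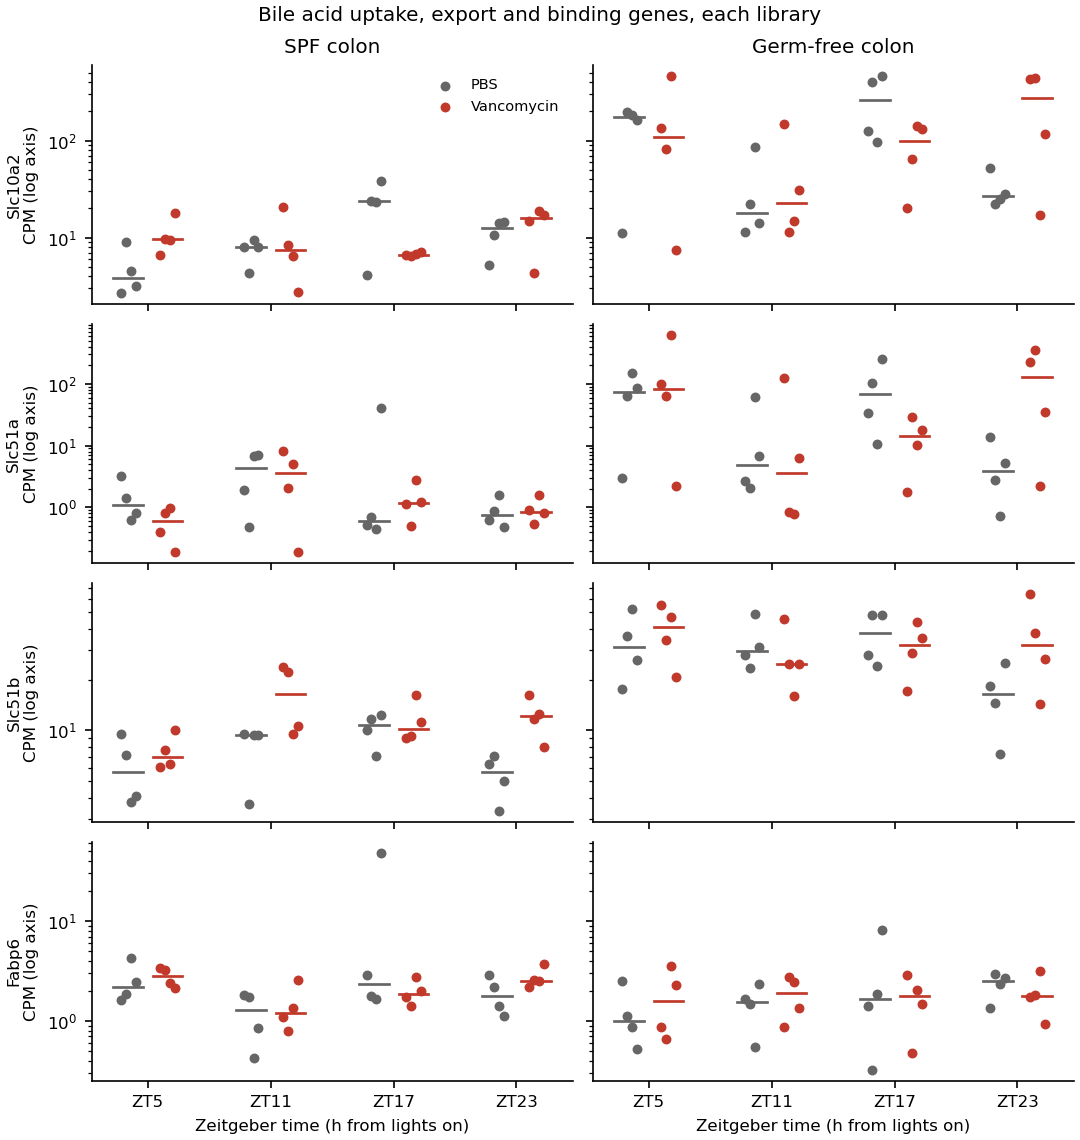
Level of Slc10a2, Slc51a, Slc51b and Fabp6 in every library, in CPM on a log axis, by zeitgeber time, with SPF libraries on the left and germ-free libraries on the right. Points are libraries (4 a group, grey for PBS and red for vancomycin) and bars are group medians; Slc10a2 and Slc51a spread from 7.52 to 460.3 and from 0.730 to 621 CPM over the germ-free libraries.

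Of the 10 genes, 8 reached a rounded count of at least 10 in at least 4 libraries of each table and were tested. Nr0b2 and Fgf15 did not. Nr0b2 had a highest estimated count of 1.02 in an SPF and 3.01 in a GF library, and Fgf15 of 4.18 and 2.32. Both had a median of 0 CPM in each table, and a count of 0 allows up to 3 counts, 0.213 to 0.288 CPM in an SPF and 0.187 to 0.280 CPM in a GF library. The highest Fgf15 value, 0.312 CPM, was in SPF PBS ZT17 replicate 4. In GF mice at ZT5, Nr0b2 was at 0 in the 4 PBS libraries and at 0.0720, 0.248, 0.0658 and 0.0643 CPM in the 4 vancomycin libraries, at most 3.01 estimated counts. The ileal hormone and the corepressor induced by FXR were therefore not detectable, or barely so, at this depth. The mRNA of the receptor itself was present in every library, as was that of Fabp6, Slc51a and Slc51b. Activity of the receptor was not measured, and the levels of Fgf15 and Nr0b2 do not stand for it.

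Ordered by group median over the 16 groups, the uptake and export genes stood highest in germ-free colon. The 8 highest groups were all germ-free for Slc51b, and 7 of the 8 were for Slc10a2, Slc51a and Nr1h4. The medians of Slc10a2 ran from 273 CPM in GF vancomycin ZT23 down to 3.88 in SPF PBS ZT5, those of Slc51a from 129.7 in GF vancomycin ZT23 to 0.606 in SPF vancomycin ZT5, and those of Slc51b from 40.8 in GF vancomycin ZT5 to 5.64 in SPF PBS ZT5. For Nr1h4 they ran from 97.9 in GF vancomycin ZT23 to 38.6 in SPF PBS ZT5, and for Cyp27a1 from 57.2 in GF vancomycin ZT17 to 17.9 in SPF PBS ZT5. Vdr ran from 349 in SPF PBS ZT23 to 204 in SPF vancomycin ZT11, with 6 germ-free groups among the upper 8. Fabp6 ran the other way, with 2 germ-free groups among the upper 8 and medians from 2.83 in SPF vancomycin ZT5 to 0.989 in GF PBS ZT5. Gpbar1 medians lay between 0.934 in SPF vancomycin ZT17 and 0.298 in SPF vancomycin ZT5. For all 10 genes the 4 libraries of each group overlapped with those of the next group in the order, in 15 of 15 neighbouring pairs, so no step in any order exceeded the spread. The 2 tables were deposited apart, their TMM factors were computed apart, and no level was tested between them. How all genes stood between the tables is not given. The counts and ratios of GF against SPF libraries, here and below, are therefore not shown to be particular to these genes.

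Single libraries showed how far germ-free and SPF colon overlapped. In GF libraries Slc51b, the β subunit of the exporter, was at 7.22 to 64.3 CPM, with a median of 27.9. In SPF libraries it was at 3.33 to 23.85 CPM, with a median of 9.41. Of 32 GF libraries, 23 lay above the highest SPF library, and the ranges overlapped from 7.22 to 23.85 CPM. For Slc10a2, 19 of 32 GF libraries lay above the highest SPF value of 37.9 CPM. For Slc51a, 12 did so over a highest SPF value of 41.4 CPM, and 19 lay above the second highest of 8.255 CPM. Nr1h4 was above the highest SPF library, 90.8 CPM, in 8 GF libraries, and Vdr above 428.5 CPM in 2.

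In germ-free colon the level of the uptake and export genes differed with the sum of the distal Hox genes. Most of that sum was Hoxb13, with medians of 3.72 CPM in the 14 libraries with low sums and 308 CPM in the other 18. Hoxd13 (0.146 and 16.7 CPM) and Hoxd12 (0 and 1.12 CPM) were also lower in the 14. Hoxd10 (3.11 and 2.66 CPM) and Hoxd11 (6.41 and 6.03 CPM) were not. Slc51a, the α subunit of the exporter, was at 29.55 to 621 CPM (median 101) in the 14 GF libraries with low Hox sums and at 0.730 to 33.3 CPM (median 2.87) in the other 18. The medians differed 35.3-fold, and only 3 of 16853 genes had a larger fold in that direction. In 13 of the 14 the level lay above every one of the 18. Slc10a2, the uptake carrier, was at 64.4 to 460.3 CPM (median 174) against 7.52 to 140.2 CPM (median 22.1), a 7.91-fold difference of medians, with 49 genes above it. Slc51b had medians of 46.3 and 23.6 CPM and Nr1h4 of 94.7 and 63.1 CPM. Of the 16853 genes, 977 had a larger fold in the same direction than Slc51b and 2162 than Nr1h4. Both thus stood out less than Slc51a and Slc10a2. The other direction was seen for Gpbar1, with medians of 0.396 and 0.935 CPM and 13 of the 14 below every one of the 18, for Fabp6 with 0.872 and 2.32 CPM, and for Cyp27a1 with 21.6 and 45.9 CPM. Gpbar1 rested on few reads, 2.96 to 41.17 estimated counts a GF library, with a rounded count of at least 10 in 14 of 32. Vdr had medians of 314 and 308 CPM. All 8 genes overlapped between the 2 sets, where 0.106% of genes lay without overlap above and 0.472% below in the 14, and these sets were drawn from the data, are not groups of the study and were not tested. Among the 18 GF libraries with Hox sums in the SPF range, medians over the SPF medians were 3.25-fold for Slc51a, 2.66-fold for Slc10a2, 2.51-fold for Slc51b, 1.94-fold for Cyp27a1, 1.55-fold for Gpbar1, 1.35-fold for Nr1h4, 1.21-fold for Vdr and 1.12-fold for Fabp6. Over all 32 GF libraries that ratio was 0.815 for Fabp6 and 0.994 for Gpbar1, so the direction for both depended on the libraries taken. The same 14 and 18 libraries also differed in other tissue genes. Median sums were 3415 (1666 to 5448) and 1720 CPM (1111 to 2475) for the 27 small intestine genes and 19900 and 10950 CPM for smooth muscle. They were 222 and 56.4 CPM for fat and mesothelium, 14.1 and 288 CPM for B cells, 136 and 336 CPM for macrophages and dendritic cells, and 70.1 and 226 CPM for the Y-linked genes. The small intestine list did not move as one. Its members Fabp2 (medians 680.5 and 118.2 CPM) and Itln1 (1055 and 470.8 CPM) were higher in the 14. Apob (155.3 and 207.4 CPM) and Slc15a1 (115.8 and 218.1 CPM) were lower. Nor did the colonocyte list, with Car1 at 2608 and 544.3 CPM and Aqp8 at 27.79 and 358.6 CPM. The part of position, tissue makeup and sex in the germ-free levels was not tested.

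**Figure D2:**
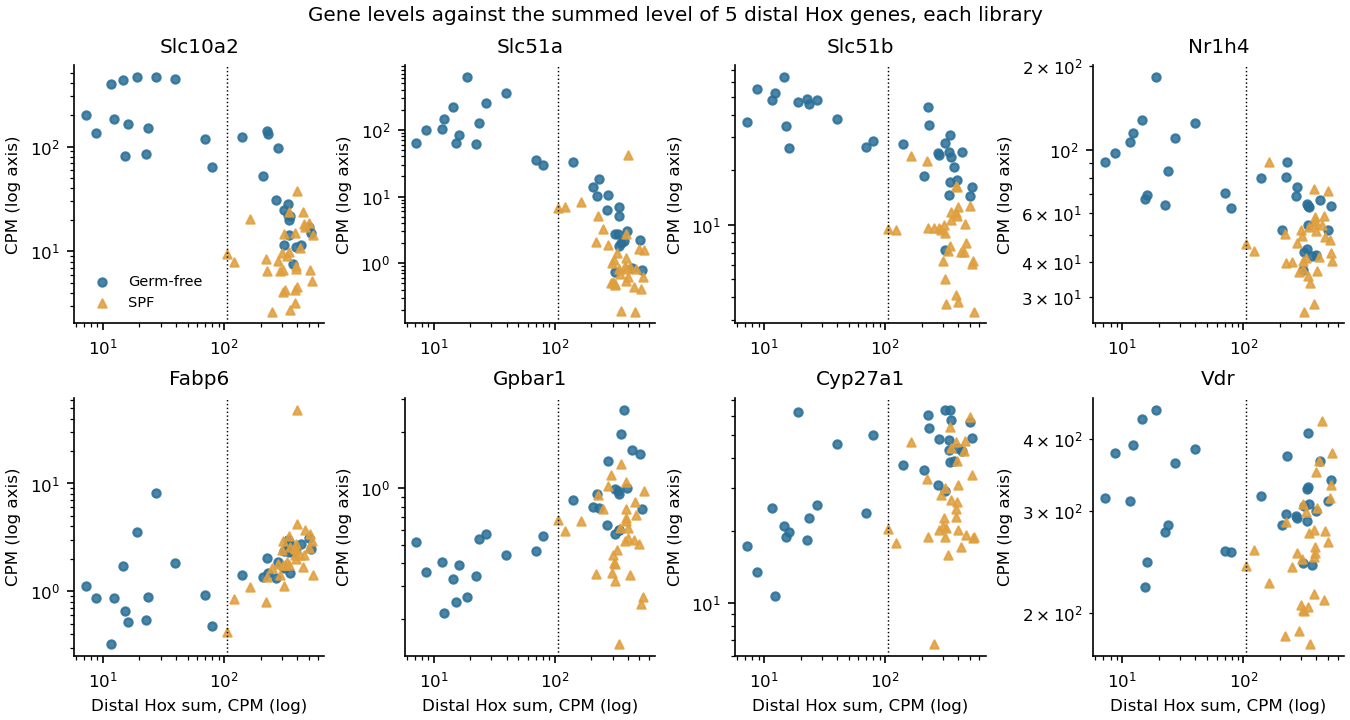
Level of each tested gene (CPM, log axis) against the summed CPM of 5 distal Hox genes (log axis) in every library, circles for germ-free and triangles for SPF. The dotted line marks the lowest SPF library at 105.7 CPM; left of it are the 14 germ-free libraries in which Slc51a was at 29.55 CPM or above, against at most 33.3 CPM in the other 18.

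The values by group show the same pattern. Slc51a in GF PBS libraries was 3.00, 62.7, 148 and 84.4 CPM at ZT5, then 2.71, 2.03, 61.1 and 6.91 at ZT11. It was 33.3, 102, 10.6 and 249 at ZT17 and 14, 2.74, 0.730 and 5.17 at ZT23. In GF vancomycin libraries it was 100.5, 62.9, 621 and 2.19 CPM at ZT5 and 126, 0.844, 0.780 and 6.27 at ZT11. High and low libraries thus occurred within single groups under both treatments. At ZT17 the GF vancomycin libraries held 1.79, 29.55, 10.2 and 18.1 CPM and at ZT23 they held 224, 354, 2.23 and 35.3. Slc10a2 in GF PBS libraries was 11.1, 198, 184.5 and 164 CPM at ZT5, 11.6, 21.96, 84.9 and 14.3 at ZT11, 124, 396, 96.98 and 456 at ZT17, and 52.2, 22.2, 24.9 and 28.2 at ZT23. Its ZT17 libraries were all above those of ZT11 and ZT23 under PBS. In GF vancomycin libraries it was 136, 82.1, 460.3 and 7.52 CPM at ZT5, 150, 11.5, 14.8 and 30.95 at ZT11, 19.98, 64.4, 140.2 and 132 at ZT17, and 429, 445, 17.03 and 118 at ZT23.

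In SPF colon 1 library carried most of the range of Fabp6 and Slc51a. Fabp6 in SPF PBS libraries at ZT17 was 2.90, 1.77, 1.67 and 48.5 CPM, and Slc51a was 0.527, 0.692, 0.439 and 41.4 CPM. Replicate 4 was high in both, while the other 31 SPF libraries reached 4.24 CPM for Fabp6 and 8.255 CPM for Slc51a. The same library had the highest SPF level of Slc10a2, 37.9 CPM. Of 27 small intestine genes, 11 were highest there of all 32 SPF libraries, among them the brush border sucrase Sis at 48.5 CPM (SPF median 0.0374), the apolipoprotein Apoa1 at 180 CPM (median 0.232), the amino acid carrier Slc6a19 at 28.7 CPM (median 1.16) and the Paneth cell defensin Defa24 at 3.28 CPM (median 0). The share of all genes that were highest in this library is not given here. Others of the 27 were not high there, such as the Paneth and goblet cell lectin Itln1 at 4.604 CPM (median 408.5) and Rbp2 at 21.38 CPM (median 39.78). The summed level of the whole list was 1459 CPM in this library, near the SPF median of 1404 CPM. It ranged from 446 to 4110 CPM over SPF PBS and from 510.2 to 2303 CPM over SPF vancomycin libraries. The distal Hox genes summed to 399.7 CPM in this library, within the range of its group. Test results on Fabp6 and Slc51a that rest on it are given with and without it.

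**Figure D3:**
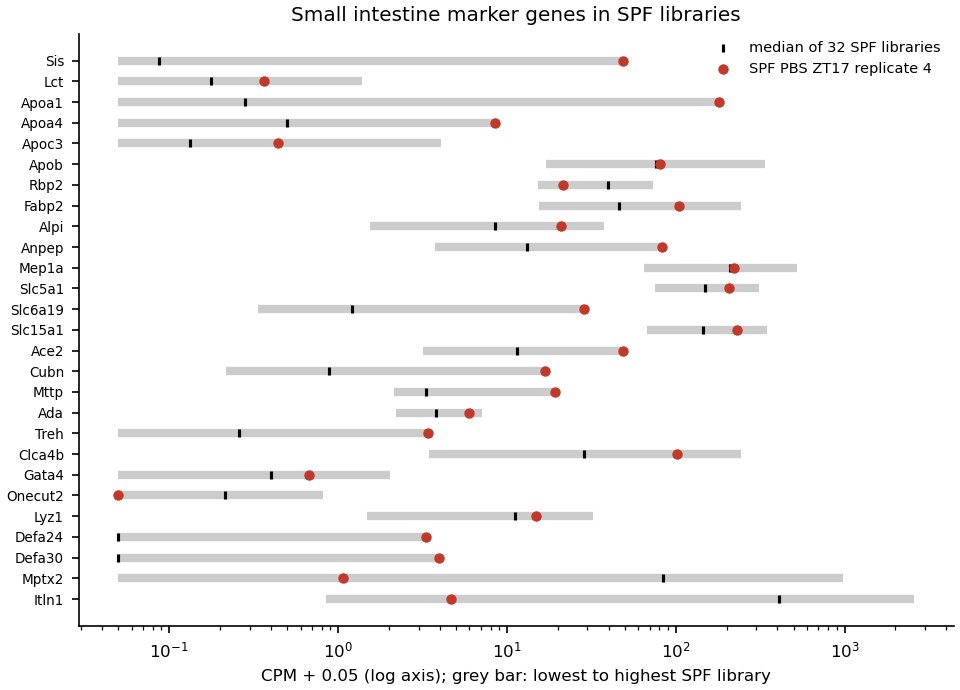
Small intestine genes in the SPF libraries, in CPM plus 0.05 on a log axis. Grey bars run from the lowest to the highest of 32 SPF libraries, black ticks are medians, and red points are SPF PBS ZT17 replicate 4, which lies at the upper end for 11 of 27 genes.

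With a microbiota present, vancomycin was followed by a higher level of the sterol hydroxylase and a lower level of the vitamin D receptor. Cyp27a1 in SPF PBS libraries was 6.71, 15.8, 20.1 and 22.7 CPM at ZT5, 20.1, 20.5, 20.3 and 17.7 at ZT11, 22.6, 44.3, 43.05 and 31.1 at ZT17, and 18.6, 17.1, 18.85 and 18.8 at ZT23. In SPF vancomycin libraries it was 34.1, 54.1, 20.9 and 47.15 CPM at ZT5, 46.6, 32.9, 18.8 and 26.8 at ZT11, 30.02, 28.2, 26.3 and 38.9 at ZT17, and 46.9, 24.6, 59.7 and 19.1 at ZT23. The treatments overlapped at ZT5, ZT11 and ZT17, and at ZT23 every vancomycin library lay above every PBS library, the lowest by a narrow margin. Over the 4 hours the mean was 22.4 ± 9.59 CPM in PBS and 34.7 ± 12.8 CPM in vancomycin libraries (SD, n = 16 each), a log2 fold change of 0.69 ± 0.17 (SE; edgeR quasi-likelihood test, Benjamini-Hochberg adjusted p = 0.0465).

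Vdr moved down. In SPF PBS libraries it was 240.5, 299, 304 and 279 CPM at ZT5, 254, 202, 241 and 257 at ZT11, 248, 275, 428.5 and 350 at ZT17, and 333, 366, 378 and 309 at ZT23. In SPF vancomycin libraries it was 316, 205, 206.5 and 211 CPM at ZT5, 226, 182, 288 and 177 at ZT11, 203, 186, 254 and 260.2 at ZT17, and 250.3, 216, 265 and 278 at ZT23. At ZT5, 3 of the 4 vancomycin libraries lay below every PBS library and replicate 1 lay above all of them, and at ZT23 the groups did not overlap. The means were 298 ± 60.5 and 233 ± 41.2 CPM (SD, n = 16 each), a log2 fold change of -0.34 ± 0.0846 (SE; edgeR, adjusted p = 0.0482). These 2 of the 8 tested genes passed the threshold of adjusted p under 0.05, 1 in each direction, as did 137 of 16938 genes or 0.809% (0.378% higher and 0.431% lower).

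Both calls lay close to the threshold. Leaving out single SPF libraries kept the direction in all 32 cases for both genes, but the adjusted p then ran from 0.0164 to 0.0842 for Cyp27a1 and from 0.00945 to 0.0852 for Vdr, and the call was lost without any 1 of 23 libraries for Cyp27a1 and of 22 for Vdr. For Cyp27a1 it was kept without SPF PBS ZT5 replicate 4, ZT11 replicate 2, ZT17 replicate 2 or ZT23 replicate 4, and without SPF vancomycin ZT5 replicates 1 or 3, ZT11 replicate 3 or ZT23 replicates 2 or 4. For Vdr it was kept without SPF PBS ZT5 replicate 1, ZT11 replicate 2, ZT17 replicates 1 or 2 or ZT23 replicate 4, and without SPF vancomycin ZT5 replicate 1, ZT11 replicate 3, ZT17 replicates 3 or 4 or ZT23 replicate 4. The 12 macrophage and dendritic cell genes summed to a median of 394 CPM in SPF PBS (287.7 to 925.5) and 632 CPM in SPF vancomycin libraries (281.9 to 915), and the 8 smooth muscle genes to 11340 (4587 to 19990) and 8623 CPM (3796 to 23370). With the macrophage level as a covariate the Vdr estimate was -0.24 (adjusted p = 0.147) and that of Cyp27a1 0.785 (adjusted p = 0.0554). With the smooth muscle level they were -0.32 (adjusted p = 0.0734) and 0.71 (adjusted p = 0.0480). Further makeup also differed, with the 9 B cell genes at medians of 183 and 445 CPM and the 9 T and NK cell genes at 34.0 and 81.1 CPM in PBS and vancomycin, and its part in these results was not tested.

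**Figure D4:**
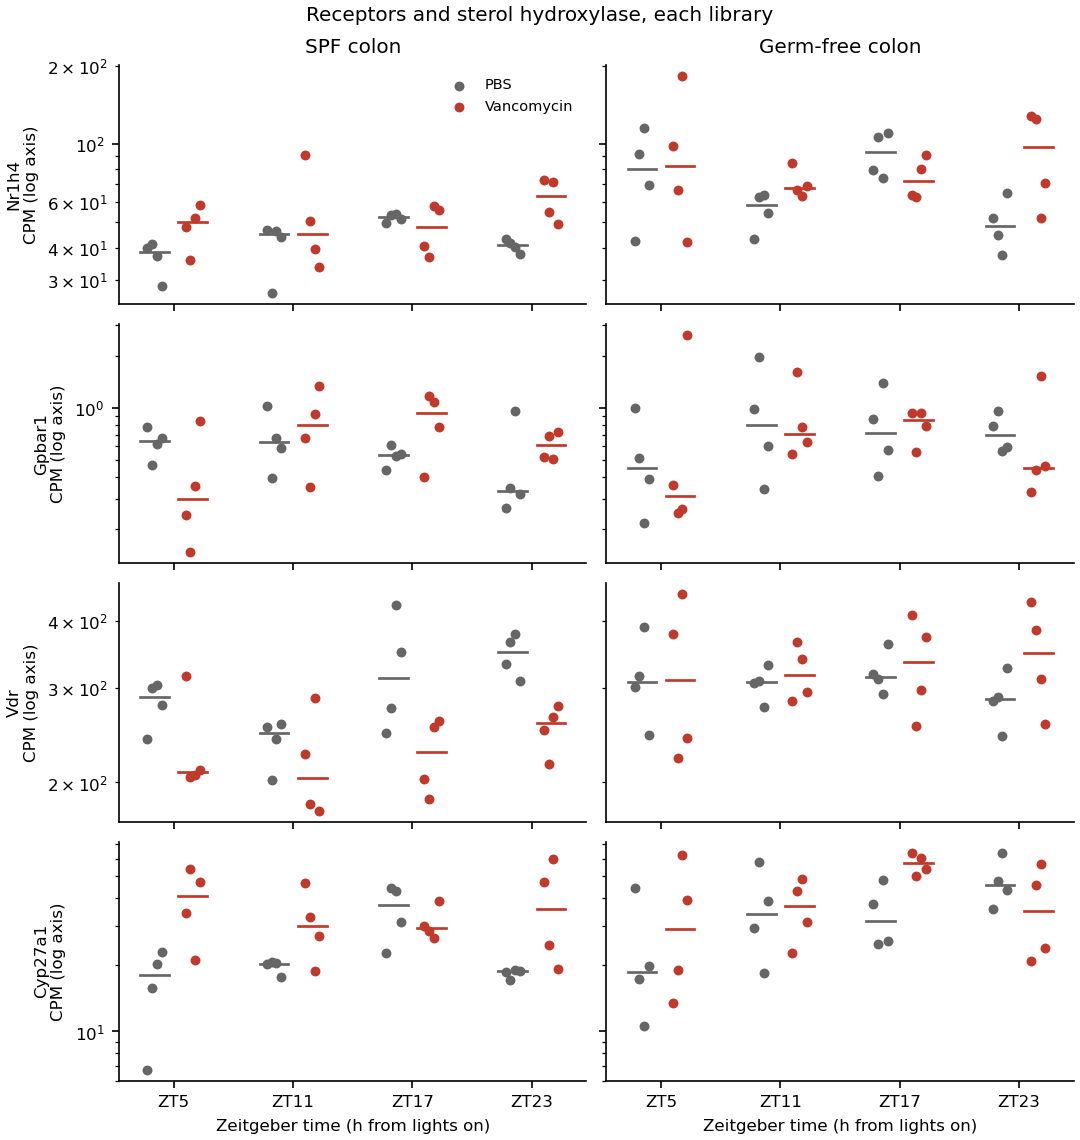
Level of Nr1h4, Gpbar1, Vdr and Cyp27a1 in every library, in CPM on a log axis, by zeitgeber time, with SPF libraries on the left and germ-free on the right. Points are libraries (4 a group) and bars group medians; in SPF mice at ZT23 the vancomycin libraries of Nr1h4 and Cyp27a1 lie above and those of Vdr below all PBS libraries.

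Slc51b came nearest to the threshold among the other genes. In SPF PBS libraries it was 9.545, 7.18, 3.78 and 4.11 CPM at ZT5, 9.54, 3.65, 9.44 and 9.38 at ZT11, 10, 11.7, 7.03 and 12.4 at ZT17, and 6.33, 7.10, 3.33 and 5.06 at ZT23. In SPF vancomycin libraries it was 6.04, 7.66, 6.31 and 10.03 CPM at ZT5, 23.85, 22.3, 9.56 and 10.6 at ZT11, 9.02, 9.30, 16.1 and 11.2 at ZT17, and 16.3, 11.6, 12.6 and 7.97 at ZT23. The treatments did not overlap at ZT11 and ZT23, with vancomycin above. The log2 fold change over the 4 hours was 0.66 ± 0.17 (edgeR, adjusted p = 0.0629), which did not pass. DESeq2 gave 0.66 with an adjusted p of 0.0141, and without SPF vancomycin ZT11 replicate 3 edgeR gave 0.0227, without SPF PBS ZT5 replicate 1 0.0441 and without SPF vancomycin ZT23 replicate 4 0.0477.

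Nr1h4 was 36.7 ± 5.81, 40.95 ± 9.60, 52.15 ± 2.04 and 40.7 ± 2.29 CPM in SPF PBS and 48.6 ± 9.57, 53.6 ± 25.75, 47.7 ± 10.7 and 62.0 ± 11.95 CPM in SPF vancomycin libraries at ZT5, ZT11, ZT17 and ZT23 (SD, n = 4 each). Its log2 fold change was 0.32 ± 0.11 (edgeR, adjusted p = 0.172). At ZT23 its 4 PBS libraries were 43.2, 41.65, 40.25 and 37.8 CPM and its vancomycin libraries 73.0, 54.6, 71.4 and 49.2, without overlap. At that hour 4 of the 8 tested genes did not overlap, Nr1h4, Slc51b and Cyp27a1 with vancomycin above and Vdr with vancomycin below, where 2.11% of all genes tested lay above and 3.02% below. No contrast at a single hour was tested. At ZT11 only Slc51b did not overlap (1.42% of genes above), and at ZT5 and ZT17 none of the 8 did (8.74% and 5.89% in either direction).

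The other 4 genes did not pass in SPF mice (edgeR). Slc10a2 had a log2 fold change of 0.03 ± 0.27 (adjusted p = 0.979) and Gpbar1 of 0.16 ± 0.24 (adjusted p = 0.802). Slc51a had -1.04 ± 0.555 (adjusted p = 0.36) and Fabp6 -0.47 ± 0.37 (adjusted p = 0.562). Without SPF PBS ZT17 replicate 4 these became 0.02 for Slc51a and 0.21 for Fabp6, so the lower values under vancomycin rested on that library. With 8 of 10 genes tested, 5 had positive and 3 negative estimates, and their median log2 fold change was 0.09 against -0.004 over all 16938 genes.

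In germ-free mice none of the 8 genes passed, and neither did any of the 16951 genes tested, 0% (672 genes or 3.96% had an unadjusted p under 0.05 in edgeR, and DESeq2 called 5). All 8 had an adjusted p of 1. Vdr, which fell in SPF mice, was 306 ± 37.5 CPM in GF PBS and 331 ± 70.5 CPM in GF vancomycin libraries (SD, n = 16 each), a log2 fold change of 0.11 ± 0.0963. Cyp27a1 was 35.2 ± 15.3 and 40.9 ± 17.02 CPM (0.23 ± 0.22). Its 4 vancomycin libraries at ZT17, 63.4, 50.15, 60.7 and 53.7 CPM, lay above its PBS libraries, 37.45, 24.85, 48.25 and 25.6 CPM, as did 1.11% of genes at that hour. At ZT5, ZT11 and ZT23 all 8 overlapped, where 1.13%, 3.24% and 6.61% of genes did not. Estimates were 0.31 ± 0.17 for Nr1h4, 0.22 ± 0.22 for Slc51b, 0.13 ± 0.33 for Gpbar1 and -0.05 ± 0.35 for Fabp6. The widest errors were those of Slc51a (1.08 ± 0.75) and Slc10a2 (0.58 ± 0.50), the genes that moved with the Hox sums. Both estimates changed sign among the 18 libraries with Hox sums in the SPF range, to -0.87 and -0.35, and Slc51a also did with the Y-linked level as a covariate, to -0.435. The 18 leave out 3 of the 4 libraries in each of GF PBS ZT5, GF vancomycin ZT5 and GF vancomycin ZT23. Values from this subset thus rest on few libraries at ZT5 and ZT23. Leaving out single libraries, Slc51a ran from 0.166 without GF vancomycin ZT11 replicate 1 to 1.64 without GF PBS ZT11 replicate 3, and Slc10a2 from 0.224 to 0.848 without the same libraries.

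Whether the effect differed between SPF and GF mice was tested in 1 fit of all 64 libraries. None of the 8 genes passed, as none of the 16604 genes did, 0% (1651 genes or 9.94% had an unadjusted p under 0.05 in edgeR, and DESeq2 called 16). For Vdr the SPF minus GF difference of log2 fold changes was -0.46 ± 0.13 (unadjusted p = 0.000914, adjusted p = 0.229). For Slc51a the difference was -2.13 ± 1.05 (adjusted p = 0.498), and it was -1.05 without SPF PBS ZT17 replicate 4 (adjusted p = 0.797) and -2.67 without GF PBS ZT11 replicate 3. The difference was -0.42 ± 0.51 for Fabp6 (adjusted p = 0.822), and 0.251 without that SPF library. It was -0.57 ± 0.595 for Slc10a2 (adjusted p = 0.788) and 0.03 ± 0.42 for Gpbar1 (adjusted p = 0.991). For Cyp27a1 it was 0.46 ± 0.28 (adjusted p = 0.601), for Slc51b 0.43 ± 0.29 (adjusted p = 0.636) and for Nr1h4 0.003 ± 0.21 (adjusted p = 1). The SPF and GF effects on Cyp27a1 and Vdr are therefore not shown to differ.

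**Figure D5:**
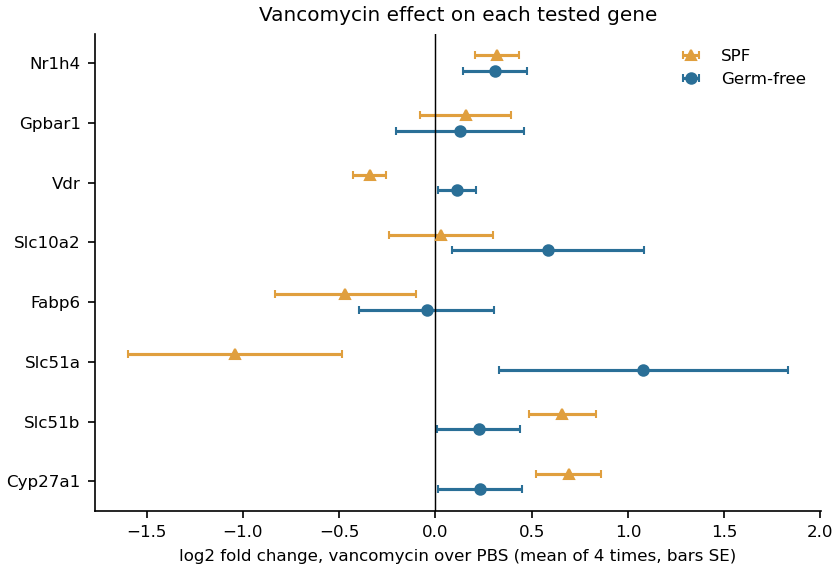
Log2 fold change of vancomycin over PBS for each tested gene, as the mean of 4 hours, with triangles for SPF and circles for germ-free mice and bars of 1 SE (n = 16 libraries a treatment). Vdr and Cyp27a1 in SPF mice pass adjusted p under 0.05; the bars of Slc51a and Slc10a2 are the longest in germ-free mice.

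Time of day was tested over both treatments. In SPF mice 3566 of 16938 genes passed (21.1%), and of the 8 genes only Fabp6 did (edgeR, adjusted p = 0.0358). Fabp6 was 2.675 ± 0.877 CPM at ZT5, 1.33 ± 0.699 at ZT11, 7.85 ± 16.45 at ZT17 and 2.32 ± 0.819 at ZT23 (SD, n = 8 each), with medians of 2.44, 1.21, 1.88 and 2.35 CPM. Without SPF PBS ZT17 replicate 4 its adjusted p was 0.0636, and the colon position covariate gave 0.117. The call was also lost without SPF PBS ZT11 replicates 3 or 4, SPF vancomycin ZT11 replicates 1, 2 or 3, or SPF vancomycin ZT17 replicates 1, 3 or 4, at adjusted p of up to 0.0729. Slc51a missed the threshold (adjusted p = 0.0524), with medians of 0.816, 3.565, 0.905 and 0.840 CPM from ZT5 to ZT23. It passed without any 1 of 8 libraries, with the smallest adjusted p without SPF PBS ZT17 replicate 4 (adjusted p = 0.00454). Its ZT11 libraries were 1.89, 0.476, 6.83 and 7.01 CPM under PBS and 8.255, 2.10, 5.03 and 0.192 CPM under vancomycin, so they spread widely under both. In the same order their distal Hox sums were 276.9, 316.3, 105.7 and 121.6 CPM under PBS. Under vancomycin these were 163.6, 220.2, 226.5 and 351.4 CPM, beside an SPF median of 348.85 CPM. Spearman's rho with the Hox sum over the 32 SPF libraries was -0.419 for Slc51a, 0.629 for Fabp6 and 0.559 for Vdr. For the other tested genes it lay between -0.253 and 0.205. Slc51b had medians of 6.745, 9.55, 10.6 and 7.53 CPM (adjusted p = 0.0628) and Vdr of 259.6, 233, 257 and 293 CPM (adjusted p = 0.105). In edgeR, Slc51b passed without any 1 of 5 libraries (adjusted p down to 0.0194) and Vdr without any 1 of 2 (down to 0.0312). The remaining 4 had adjusted p of 0.28 or more. DESeq2 called Slc51a (adjusted p = 0.00997) and Slc51b (adjusted p = 0.0296) and gave no adjusted p for Fabp6.

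In germ-free mice 168 of 16951 genes passed for time of day (0.991%), and none of the 8 genes did. Slc10a2 had the smallest adjusted p, 0.337, with medians of 150, 18.4, 128 and 40.2 CPM at ZT5, ZT11, ZT17 and ZT23. It passed in 2 of 8 alternative settings, among them the Hox level as a covariate (edgeR, adjusted p = 0.0329). Among the 18 libraries with Hox sums in the SPF range, the level was 7.52 to 11.1 CPM in 2 at ZT5 and 11.5 to 30.95 CPM in 6 at ZT11. It was 19.98 to 140.2 CPM in 5 at ZT17 and 17.03 to 52.2 CPM in 5 at ZT23. Among the 14 with low Hox sums it was 82.1 to 460.3 CPM in 6 at ZT5, 84.9 to 150 in 2 at ZT11, 64.4 to 456 in 3 at ZT17 and 118 to 445 in 3 at ZT23. The time of day profile differed between SPF and GF mice for 590 of 16604 genes (3.55%) and for none of the 8, with the smallest adjusted p for Slc51a at 0.143. That value was 0.0460 by DESeq2, 0.0425 without GF PBS ZT11 replicate 3 and 0.0185 without GF vancomycin ZT11 replicate 1. The effect of vancomycin differed between hours for 61 genes in SPF mice (0.36%) and 0 in GF mice (0%, with 1405 genes or 8.29% at an unadjusted p under 0.05 and 9 by DESeq2), with none of the 8 among them. In SPF mice the adjusted p of Fabp6 was 0.346, and 0.939 without SPF PBS ZT17 replicate 4, and that of Slc51a was 0.697 (0.6 to 0.781 leaving out single libraries).

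Slc10a2 came nearest in that last comparison in SPF mice (unadjusted p = 0.00677, adjusted p = 0.307). Under PBS it was 2.67, 8.97, 4.55 and 3.21 CPM at ZT5, 8.08, 4.29, 9.44 and 7.94 at ZT11, 4.12, 23.99, 23.55 and 37.9 at ZT17, and 5.19, 10.7, 14.2 and 14.6 at ZT23. Under vancomycin it was 6.60, 9.80, 9.57 and 18.1 CPM at ZT5, 20.5, 8.485, 6.46 and 2.79 at ZT11, 6.63, 6.53, 6.77 and 7.199 at ZT17, and 14.97, 4.31, 18.7 and 16.9 at ZT23. At ZT17, 3 of the 4 PBS libraries lay above all vancomycin libraries and replicate 1 below them, so the groups overlapped.

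The wider pathways were read from lists of other bile acid genes and of partners and targets of the vitamin D receptor. Of 45 bile acid genes 38 were tested in SPF mice and none passed for vancomycin (10 had an unadjusted p under 0.05, as did 16.2% of all genes tested), with a median log2 fold change of -0.08. Among them were the nuclear receptor Hnf4a at -0.29 ± 0.0846 (adjusted p = 0.0911), the basal exporter Abcc3 at -0.36 ± 0.12 (adjusted p = 0.15), the apical exporter Abcc2 at -0.63 ± 0.23 (adjusted p = 0.182) and the hydroxylase Cyp3a13 at 0.48 ± 0.17 (adjusted p = 0.171). Of 23 vitamin D genes 20 were tested and none passed (6 at an unadjusted p under 0.05), with a median of -0.125. The calcium channel Trpv6 had -0.97 ± 0.35 (8.00 ± 5.845 to 3.70 ± 2.37 CPM, adjusted p = 0.171), the manganese exporter Slc30a10 -0.92 ± 0.29 (58.7 ± 30.35 to 33.0 ± 25.15 CPM, adjusted p = 0.116) and the homeobox factor Cdx2 -0.48 ± 0.17 (adjusted p = 0.171). In GF mice none of 40 and none of 21 tested passed for vancomycin.

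For time of day in SPF mice 16 of the 38 bile acid genes passed, where 21.1% of all genes tested did. Of the 20 vitamin D genes 5 passed, a share near that of all genes. The bile acid genes included the anion carrier Slco3a1 (adjusted p = 0.00034), the FGF co-receptor Klb (adjusted p = 0.00109), the nuclear receptor Nr1i3 (adjusted p = 0.00157) and the sterol exporters Abcg5 (adjusted p = 0.00295) and Abcg8 (adjusted p = 0.00355). Of the vitamin D genes these were the calcium exchanger Slc8a1 (adjusted p = 5.32e-05), the 25-hydroxylase Cyp2r1, the phosphate carrier Slc34a2, Slc30a10 and Pdia3 (adjusted p = 0.0133). With the smooth muscle level as a covariate Slco3a1 (adjusted p = 0.331), Slc8a1 (adjusted p = 0.294), Cyp2r1 (adjusted p = 0.0552) and Pdia3 (adjusted p = 0.379) no longer passed. In GF mice Abcc2 passed of 40 bile acid genes (adjusted p = 0.0228) and none passed of 21 vitamin D genes, where 0.991% of all genes did. Nearest of the vitamin D genes was Slc34a2 (edgeR, adjusted p = 0.053), which passed without any 1 of 6 libraries and in 2 of 8 alternative settings. Abcc2 no longer passed in the libraries with Hox sums in the SPF range (adjusted p = 0.211), nor without GF PBS ZT17 replicate 1 or GF vancomycin ZT17 replicates 1 or 2, at adjusted p of up to 0.067. The profile differed between SPF and GF mice for 2 of 38 bile acid genes, Abcg5 (adjusted p = 0.0221) and Abcg8 (adjusted p = 0.0230), and for 1 of 20 vitamin D genes, Slc30a10 (adjusted p = 0.0412), shares near the 3.55% of all genes. The effect of vancomycin differed between hours in SPF mice for none of the 38 bile acid genes and for 1 of the 20 vitamin D genes, where 0.36% of all genes passed. That gene was Cyp2r1 (adjusted p = 0.0120), at a mean of 0.450 ± 0.461 CPM in PBS and 0.484 ± 0.4395 CPM in vancomycin libraries (SD, n = 16 each).

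For each gene the 3 genes whose levels ranked most alike over the 32 libraries of a table were named, among genes with a mean of at least 5 CPM. The libraries share treatments, hours and tissue makeup, so Spearman's rho is a description. In SPF colon Cyp27a1 ranked most like Scnn1b (rho = 0.849) and Scnn1g (0.843), which encode 2 parts of a colonic sodium channel, and Slc7a9 (0.804). Vdr ranked most like the actin-severing Gsn (0.872), Pheta1 (0.855) and Garem1 (0.848), and Nr1h4 like Cds1 (0.831) and the inflammasome genes Nlrc4 (0.83) and Nlrp6 (0.813). Slc51a ranked most like intestinal alkaline phosphatase Alpi (0.78), Msra (0.777) and the fatty acid binding protein Fabp2 (0.729), with all 32 SPF libraries in the ranking. In germ-free colon Slc51a ranked most like the glucuronosyltransferase Ugt2b5 (0.979), Hsd17b13 (0.971) and B4galnt2 (0.965), and Slc10a2 like Gcnt3 (0.93), Ugt1a1 (0.93) and the taurine carrier Slc6a6 (0.927). Nr1h4 ranked most like Slc10a2 itself (0.899), over libraries that differ in the Hox sums given above.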

How the data were processed

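RNA from whole colon was sequenced after poly(A) selection, from 1000 ng of RNA, as single-end reads of 75 cycles, per the labels' protocols. Cutadapt 3.5, Salmon, Trim Galore 0.6.2 and build GRCm39 are listed in the submitters' processing notes. The deposited values are estimated counts per gene made by the authors, 1 table for SPF and 1 for GF mice. A single read was worth 0.977 to 1.01 in SPF and 0.968 to 1 in GF libraries, and no source used here says how the authors scaled them. Values were rounded, genes with at least 10 in at least 4 libraries were kept, and TMM-scaled CPM were computed. edgeR 4.0.16 (R 4.3.3) quasi-likelihood tests, adjusted by Benjamini-Hochberg over all genes tested, were fitted to each table over 8 groups, and to both tables for differences of within-table contrasts. DESeq2 1.42.0 was an alternative, with other filters, scalings, a replicate block, covariates and left-out libraries. The smooth muscle and macrophage covariates and the subset of GF libraries with Hox sums in the SPF range were chosen after seeing the data. The scripts were tested on simulated data. The members and lists were chosen with earlier results of these data known. Genes named are the members, the 3 genes most alike to each by Spearman's rho, and list genes with the smallest p. Promoters came from RefSeq (GRCm38.p6), 9 of 10 genes matching.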

Additional observations from a re-analysis of the deposited data

Results flagged for a closer look

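Single libraries stood apart from the other 3 of their group (a gap, relative to the group's range, over the critical value of Dixon's test) in 15 of 128 gene and group combinations, where chance gives about 1 in 20. In SPF PBS ZT17 replicate 4, Fabp6 was 48.53 CPM (others 1.67 to 2.90) and Slc51a 41.43 CPM (others 0.439 to 0.692). In SPF PBS ZT11 replicate 2, Nr1h4 was 26.68 CPM (others 43.9 to 46.7) and Slc51b 3.652 CPM (others 9.38 to 9.54). Cyp27a1 was 17.66 CPM in SPF PBS ZT11 replicate 4 and 17.14 CPM in SPF PBS ZT23 replicate 2, in groups whose other libraries lay close together. Vdr was 316.2 CPM in SPF vancomycin ZT5 replicate 1 (others 205 to 211) and Gpbar1 0.9647 CPM in SPF PBS ZT23 replicate 3 (others 0.264 to 0.346).

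In germ-free mice the high libraries of the transporters recurred. Slc10a2 was 84.87 CPM and Slc51a 61.13 CPM in GF PBS ZT11 replicate 3, and they were 149.7 and 126 CPM in GF vancomycin ZT11 replicate 1. Slc51a was 621.1 CPM in GF vancomycin ZT5 replicate 3. These 3 libraries were among the 14 with low distal Hox sums. Gpbar1 was 2.636 CPM in GF vancomycin ZT5 replicate 4 and 1.534 CPM in GF vancomycin ZT23 replicate 3, which were among the other 18.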

How the results depend on the processing

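Counts of genes past the threshold moved most. For vancomycin in SPF mice 137 became 493 with DESeq2, 80 without a filter, 41 with the macrophage covariate, and 47 to 518 leaving out single libraries (47 without SPF vancomycin ZT5 replicate 4, 518 without SPF vancomycin ZT11 replicate 3). For time of day in SPF mice 3566 became 2266 with the position and 948 with the smooth muscle covariate. For treatment by time, 61 in SPF mice became 205 and 0 in GF mice became 9 with DESeq2 (0 to 1 leaving out libraries in GF mice). For vancomycin in GF mice 0 became 5 with DESeq2. For time of day in GF mice 168 became 740 with DESeq2, 99 without a filter, 63 in the libraries with Hox sums in the SPF range and 90 to 318 leaving out libraries. The difference between vancomycin effects went from 0 to 16 with DESeq2, 8 with the position covariate and 0 to 1 leaving out libraries. The difference in time profile went from 590 to 1470 with DESeq2, 337 without a filter, 266 with the position and 225 with the Y-linked covariate, 2184 in the libraries with Hox sums in the SPF range and 281 to 1924 leaving out libraries. The cause was not tested.

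Cyp27a1 for vancomycin in SPF mice had an adjusted p of 0.00687 with DESeq2, 0.0592 without a filter and 0.0503 with the position covariate. For Vdr these were 0.00737, 0.0689 and 0.0548. For time of day in SPF mice, the adjusted p of Vdr was 0.0207 with the macrophage covariate and that of Fabp6 0.0902 with the smooth muscle covariate. Estimates that changed sign were small or wide. With the position covariate they were -0.0247 for Slc10a2 in SPF mice, -0.0451 for Gpbar1 in GF mice and -0.0295 for the difference of Nr1h4. With the Y-linked covariate they were -0.435 for Slc51a in GF mice, and for the differences 0.0125 for Fabp6 and -0.31 for Gpbar1. In the libraries with Hox sums in the SPF range they were 0.24 for Fabp6, -0.348 for Slc10a2 and -0.87 for Slc51a in GF mice, and for the differences 0.383 for Slc10a2 and -0.301 for Gpbar1. Leaving out single libraries, SPF estimates ran from -0.574 to 0.207 for Fabp6, -0.148 to 0.146 for Slc10a2 and -1.21 to 0.0219 for Slc51a. GF estimates ran from 0.166 to 1.64 for Slc51a, 0.224 to 0.848 for Slc10a2, -0.185 to 0.277 for Fabp6 and -0.269 to 0.271 for Gpbar1. The differences ran from -2.67 to -1.05 for Slc51a, -0.823 to -0.203 for Slc10a2, -0.086 to 0.134 for Nr1h4, -0.746 to 0.251 for Fabp6 and -0.132 to 0.425 for Gpbar1.

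Replicate numbers are shared between groups. Deviations of same-numbered libraries correlated from -0.331 to 0.518 in SPF (median 0.0229) and -0.557 to 0.585 in GF mice (median -0.0553). The correlation was over 0.1 in 33 of 112 pairs in each table. These values do not show a pairing by number and cannot exclude it. With the replicate block, 157 genes passed for vancomycin, 3400 for time of day and 55 for treatment by time in SPF mice. In GF mice these were 0, 85 and 0, and 0 and 358 for the differences in vancomycin effect and time profile. Under the block the adjusted p was 0.0578 for Cyp27a1 and 0.0401 for Vdr (vancomycin, SPF) and 0.0974 for Fabp6 (time of day, SPF), and the difference of Nr1h4 was -0.00668. Depth limited Nr0b2 and Fgf15, which were at or near 0. It also limited Gpbar1, with 2.06 to 14.15 estimated counts in SPF and 2.96 to 41.17 in GF libraries.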
